A study of Mus musculus with 4 samples.

Results

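The genes described are 7 alarm cytokine genes, Il33, Tslp, Il1a, Il1b, Il1rn, Il18 and Il6, chosen by name out of 33697 features and followed through 4 single-cell RNA libraries of mouse trachea and through cell sources gated by marker genes. The libraries were knockout dorsal, control dorsal, knockout ventral and control ventral trachea, 1 library each. Knockout mice were Ctnnb1-fl/fl and control mice Ctnnb1-fl/+, so that controls too carried 1 floxed allele of Ctnnb1, the gene of beta-catenin. Both carried the P63-CreER driver, the Ki67-lsl-Dre allele that makes a further recombinase in dividing cells, and the reporter Rosa26-rsr-GFP. All mice received tamoxifen and were collected 10 days later. The Cre is driven by P63, a basal cell gene, so the deletion was aimed at basal cells and their progeny, and any difference in fibroblasts or macrophages was measured in cells the Cre was not aimed at. How many mice a library pooled, and their age and sex, the labels do not state. With 1 library per group nothing could be tested: values below are UMIs (single counted mRNA molecules) scaled to the total UMIs of the same cells as CPM, counts for each 1000000 UMIs, and every interval is an exact 95% interval that covers counting error only. A difference between libraries and a difference between genotypes or regions cannot be told apart.

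Alarm cytokines are signals that barrier tissues hold ready or make quickly after damage. IL-33 and IL-1alpha are stored in cells and are released when cells break, IL-1beta and IL-18 are made as precursors that caspase-1 cuts in inflammasomes, and TSLP is a secreted cytokine that acts on dendritic cells, T cells and innate lymphoid cells. Il1rn encodes the receptor antagonist that blocks both IL-1 cytokines, and Il6 encodes a cytokine of the acute phase response. In the airway these genes are best known from epithelium, where IL-33, TSLP and IL-25 start type 2 inflammation.

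After filtering, 6120, 12971, 6545 and 9693 cells were kept in the knockout dorsal, control dorsal, knockout ventral and control ventral libraries, with a median of 15716, 14920, 12300 and 13642 UMIs. Gates took basal cells by Trp63 and Krt5, hillock cells (a stratified luminal type) by Krt13 and Krt4, secretory cells by Scgb1a1, tuft cells by Trpm5, fibroblasts by Col1a2 and macrophages by C1qa. All 8 checking markers of fibroblasts and all 8 of macrophages were found in their own gate in each library, and Krt14, Krt15 and 6 other basal markers summed to between 5880 and 6641 CPM in the basal gate. In the hillock gate these basal markers summed to 8129, 9829, 6798 and 7794 CPM in the same order of libraries. That was above the basal gate of each library, so they do not set basal-gated apart from hillock-gated cells. Basal-gated cells also held between 43388 and 58842 CPM of secretory markers. Tuft-gated cells numbered 5, 13, 16 and 36 in the same order of libraries and hillock-gated cells 188, 628, 6 and 43, so ventral hillock cells and all tuft cells enter no comparison. Ctnnb1 in basal-gated cells was 209 CPM in knockout dorsal and 284 CPM in control dorsal trachea, and 232 CPM in knockout ventral and 284 CPM in control ventral trachea. It was lower in knockout libraries in gated fibroblasts as well, at 100 against 130 CPM dorsally and 132 against 151 CPM ventrally, and the labels do not state which exons were deleted. Between 21 and 57 cell barcodes were shared by each pair of libraries.

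The epithelium was not the main source of most of these genes. Il33 and Il6 were fibroblast genes, and Il1b was a gene of myeloid cells. Counted over all cells, fibroblasts, with Dcn-positive cells outside the gate included, held 94.7% of the Il33 UMIs of the knockout dorsal library, 80.7% of the control dorsal, 89.9% of the knockout ventral and 87.0% of the control ventral library. For Il6 the fibroblast share was 88.4%, 74.7%, 81.3% and 82.4% in the same order, and for Tslp 85.9%, 75.9%, 52.2% and 58.3%. Macrophages, dendritic cells, neutrophils and other Tyrobp-positive cells held 99.5%, 87.8%, 95.1% and 96.7% of Il1b.

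**Figure D1:**
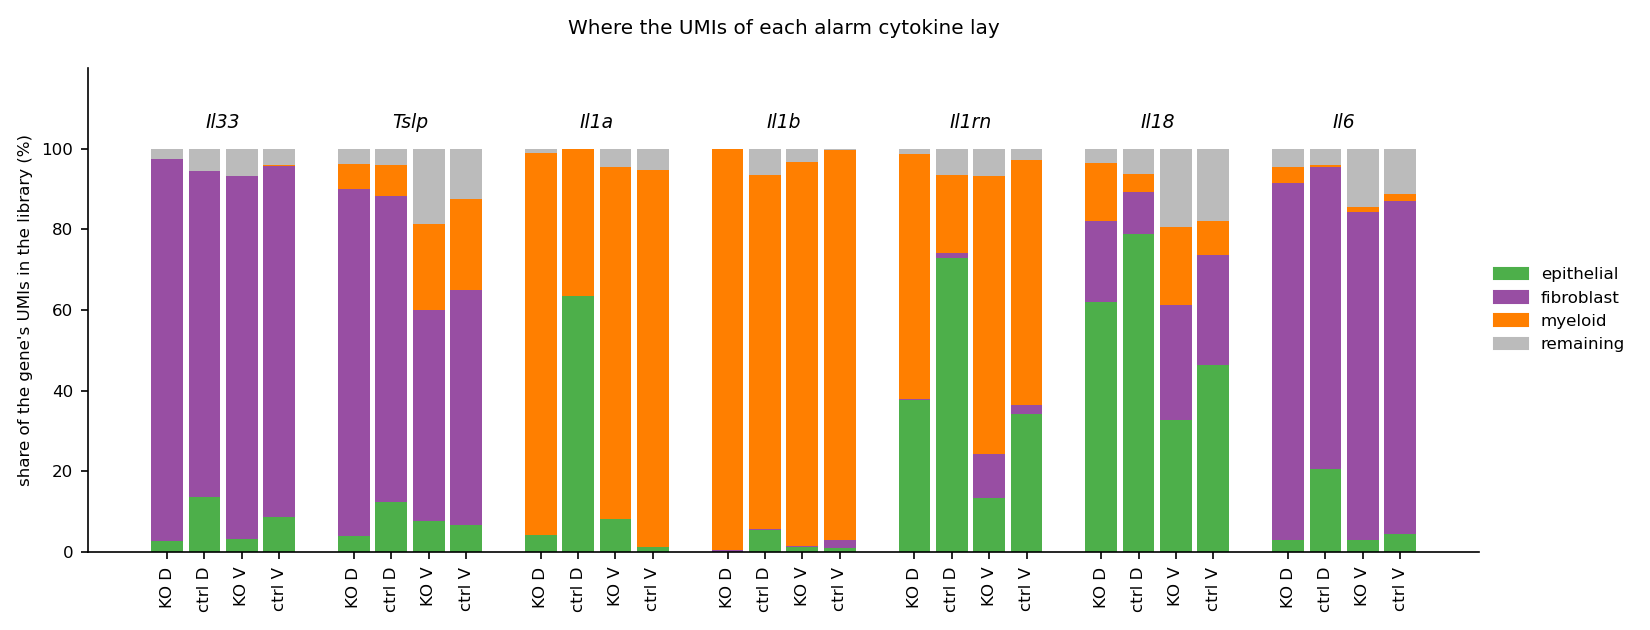
Share of each gene's UMIs (percent of all its UMIs in the library) that lay in epithelial cells, fibroblasts, myeloid cells and the remaining cells; each bar is 1 library (KO, knockout; ctrl, control; D, dorsal; V, ventral). Il33, Tslp and Il6 bars are mostly fibroblast, Il1b bars mostly myeloid, and the Il18 and Il1rn bars have epithelial parts that are smaller in each knockout bar than in the control bar beside it.

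Il1rn and Il18 were the members with a large epithelial part. The epithelial share of Il1rn was 37.7% in knockout dorsal and 72.8% in control dorsal trachea, and 13.4% in knockout ventral and 34.3% in control ventral trachea. For Il18 it was 61.9% against 78.7% dorsally and 32.6% against 46.3% ventrally. Shares depend on how many cells of each type a library holds, and hillock and secretory cells made up smaller shares of the knockout libraries, so the levels within a source follow. Il1a was the scarcest member, with 94, 115, 86 and 75 UMIs in whole libraries; its epithelial share was 63.5% in control dorsal trachea, where 70 of the 115 UMIs lay in hillock cells, and between 1.33% and 8.14% in the other libraries.

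T cells, which should lack Il33, Tslp and Il6, were used as the background for free RNA: of 76, 91, 128 and 178 gated T cells, 0, 0, 1 and 1 had a UMI of Il33, none had one of Tslp, and 0, 0, 0 and 1 had one of Il6, at median depths between 5717 and 7982 UMIs. The limit of 3 UMIs that a count of 0 allows equals 4.55, 5.21, 3.17 and 1.95 CPM in the T cells of knockout dorsal, control dorsal, knockout ventral and control ventral trachea. Il33 and Il6 in fibroblasts were above these limits in each library, but at this depth free RNA cannot be told apart from levels of a few CPM, such as those of Tslp and Il6 in basal and secretory cells and of Il33 in basal cells. The same holds for Il33 in secretory cells, except at 7.47 CPM in control ventral trachea, above the upper limit of 4.70 CPM in T cells. Fibroblasts thinned to 4000 UMIs had a UMI of Il33 in 31.8%, 27.0%, 34.9% and 27.5% of cells in knockout dorsal, control dorsal, knockout ventral and control ventral trachea, and of Il6 in 19.2%, 25.4%, 20.0% and 19.6%. Without thinning the Il33 shares were 56.1%, 42.8%, 56.2% and 45.3%, at median depths between 10003 and 13010 UMIs.

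**Figure D2:**
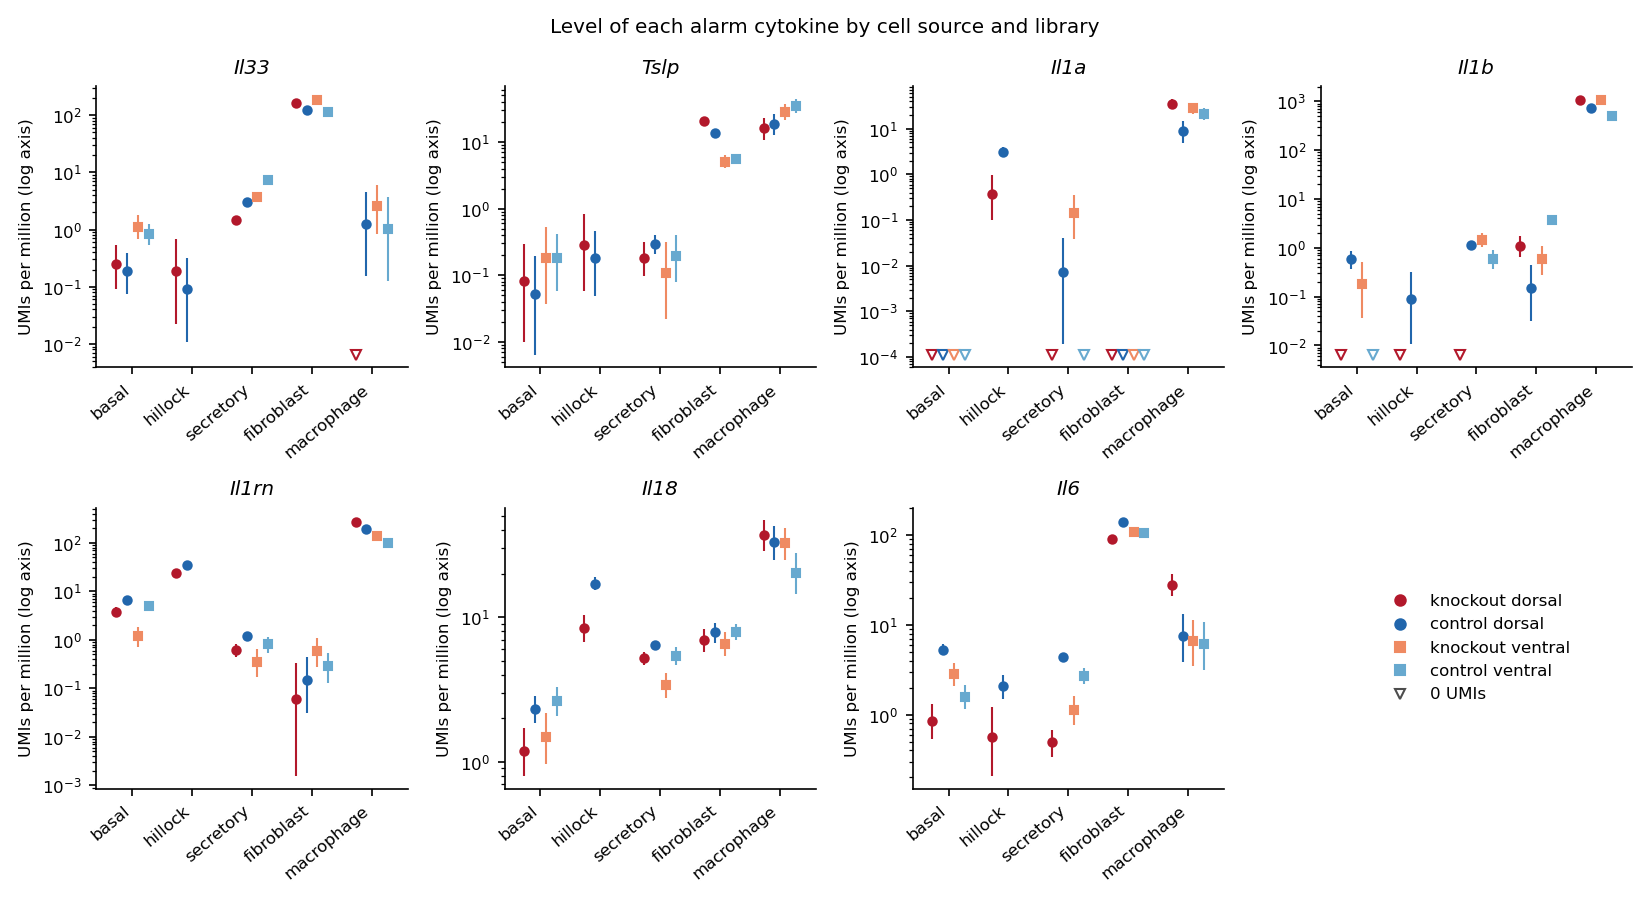
Level of each gene in CPM (log axis) by cell gate, with exact 95% Poisson intervals; red and orange points are knockout and blue points control libraries, circles dorsal and squares ventral, and open triangles mark 0 UMIs. Gates with under 50 cells are left out. Of the gates drawn, Il33 and Il6 are highest in fibroblasts and Il1b and Il1rn in macrophages, and Il1rn in hillock cells lies above basal and secretory cells.

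Il33 and Il6 were the most abundant members in fibroblasts; Il33 was the higher of the pair except in control dorsal trachea. Gated fibroblasts held 163 CPM (interval 157 to 169) in knockout dorsal trachea and 122 CPM (117 to 127) in control dorsal trachea, and 186 CPM (180 to 193) in knockout ventral and 112 CPM (108 to 116) in control ventral trachea. Both knockout libraries lay above both control libraries. The ratio of knockout to control was 1.34 dorsally (1.27 to 1.42) and 1.66 ventrally (1.59 to 1.75), against 7.52% and 4.73% of all measured genes at least 1.5-fold higher in the same fibroblasts; the dorsal ratio was under that fold. The ratios stayed between 1.30 and 1.55 dorsally and between 1.60 and 1.76 ventrally over the alternatives tried. Fibroblast-gated cells thinned to a fixed depth showed the same order, with the 2 knockout shares above the 2 control shares.

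Over the whole tissue the Il33 difference was larger, at 28.2 CPM in knockout dorsal and 12.9 CPM in control dorsal trachea, and 39.5 CPM in knockout ventral and 22.1 CPM in control ventral trachea. Fibroblasts by the gate made up 1192 of 6120 cells in knockout dorsal and 1891 of 12971 cells in control dorsal trachea (19.5% and 14.6%), and 1313 of 6545 cells in knockout ventral and 2230 of 9693 cells in control ventral trachea (20.1% and 23.0%), so the share was higher in the knockout dorsally and lower in it ventrally. Dcn-positive cells that failed the Col1a2 gate added 1531 Il33 UMIs in the knockout dorsal library (130 CPM) and 445 in the control dorsal library (42.7 CPM), and 1711 in knockout ventral (154 CPM) against 348 in control ventral trachea (45.1 CPM). How far cell numbers and RNA per cell each move the whole-tissue value was not tested.

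Within fibroblasts, Il33 and Il6 were spread differently over the marker types. Fibroblasts with Pi16 or Dpp4, markers of an adventitial type, held 201, 174, 306 and 225 CPM of Il33 in knockout dorsal, control dorsal, knockout ventral and control ventral trachea. Fibroblasts with Col23a1 held 40.1, 35.3, 67.2 and 38.0 CPM, below the Pi16 or Dpp4 cells of each library. Fibroblasts with none of the type markers held 251, 141, 363 and 181 CPM, above the Pi16 or Dpp4 cells in both knockout libraries and below them in both control libraries. Il6 ran the other way in 3 libraries: Col23a1 cells held 309 CPM in control dorsal, 155 in knockout ventral and 135 in control ventral trachea, against 134, 61.8 and 48.5 CPM in Pi16 or Dpp4 cells of the same libraries. The knockout dorsal library was the exception, with 57.6 CPM of Il6 in Col23a1 cells (33 UMIs in 51 cells) and 108 CPM in Pi16 or Dpp4 cells. Fibroblasts with Lrat or Bmp5 numbered 47, 53, 31 and 82, and held 249 CPM of Il33 in knockout dorsal against 98.7 CPM in control dorsal trachea, and 289 CPM in knockout ventral against 27.2 CPM in control ventral trachea; 56 of the 153 UMIs in knockout dorsal trachea lay in 1 cell. Fibroblasts that passed several of these rules numbered 475, 706, 467 and 774 and held 113, 76.6, 87.5 and 68.0 CPM of Il33.

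**Figure D3:**
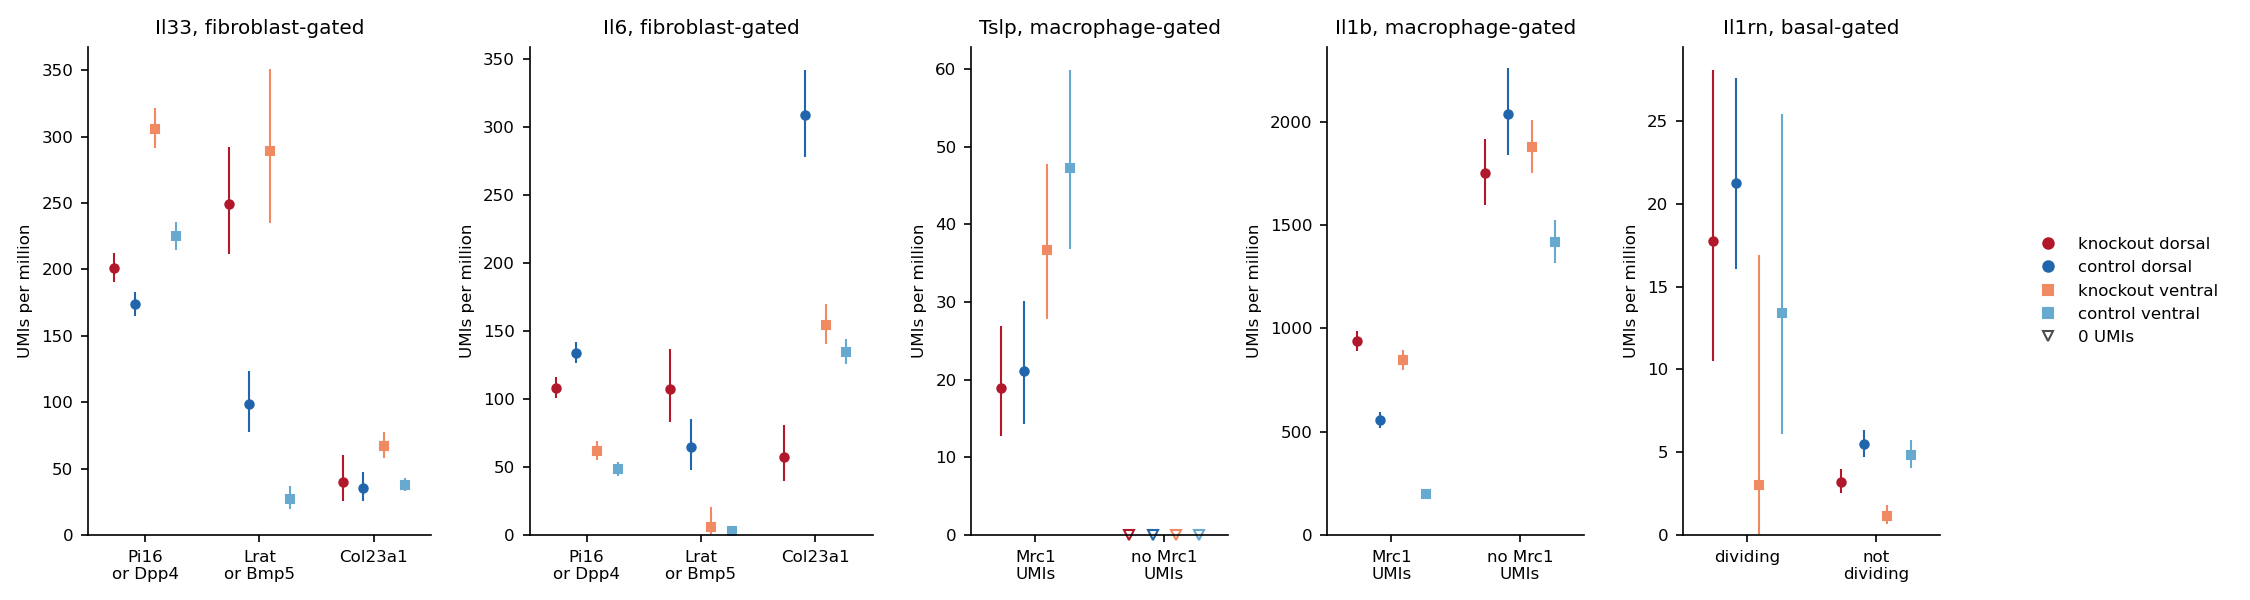
Levels in CPM within gated sources, with exact 95% Poisson intervals: Il33 and Il6 by fibroblast type, Tslp and Il1b in macrophages with and without Mrc1 UMIs, and Il1rn in basal cells with UMIs of at least 3 division genes or fewer. Colours and symbols mark the 4 libraries, and open triangles mark 0 UMIs. Il33 is lower in Col23a1 fibroblasts than in those with Pi16 or Dpp4, Tslp is at 0 in macrophages without Mrc1 UMIs, and Il1b is higher in them in each library.

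Il6 in gated fibroblasts was 89.9 CPM (85.3 to 94.6) in knockout dorsal and 141 CPM (136 to 146) in control dorsal trachea, and 109 CPM (104 to 114) in knockout ventral and 106 CPM (103 to 110) in control ventral trachea. The control dorsal library was the highest and the knockout dorsal library the lowest of the 4. The ratio of knockout to control was 0.638 dorsally (0.599 to 0.68) and 1.02 ventrally (0.965 to 1.08), with 21.4% and 9.5% of all measured genes at least 1.5-fold lower in fibroblasts. The regions therefore stood on opposite sides in the 2 genotypes: dorsal over ventral was 1.32 (1.26 to 1.39) in controls and 0.827 (0.772 to 0.886) in knockouts. That difference between the 2 ratios was not tested.

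Tslp, in contrast, went with region in gated cells, and in opposite directions in its 2 main sources. Gated fibroblasts held 20.8 CPM in knockout dorsal and 5.09 CPM in knockout ventral trachea, and 13.9 CPM in control dorsal and 5.56 CPM in control ventral trachea. The dorsal over ventral ratio was 4.09 in knockouts (3.22 to 5.24) and 2.50 in controls (2.06 to 3.03), where 4.52% and 4.51% of all measured genes were at least 1.5-fold higher. One knockout dorsal cell held 153 of the 341 UMIs; without the top cell of each library the knockout ratio was 2.31, and the ratio of knockout to control in dorsal fibroblasts turned to 0.843 where it had been 1.5. Shares of thinned fibroblasts with a UMI do not rest on single cells: they were 4.49% in knockout dorsal and 1.46% in knockout ventral trachea, and 4.42% in control dorsal and 1.82% in control ventral trachea. Knockout Dcn-positive cells that failed the Col1a2 gate held 5.68 CPM dorsally and 4.94 CPM ventrally, and control ones 1.82 and 2.33 CPM. These values came from 67, 55, 19 and 18 UMIs, and the dorsal one was the higher in knockouts only.

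Macrophages showed the opposite order to gated fibroblasts. They held 16.1 CPM of Tslp in knockout dorsal and 28.5 CPM in knockout ventral trachea, and 18.7 CPM in control dorsal and 35.2 CPM in control ventral trachea, from 30, 56, 30 and 69 UMIs. The dorsal over ventral ratio was 0.567 in knockouts (0.351 to 0.899) and 0.531 in controls (0.334 to 0.827), beside 22.9% and 13.0% of measured genes at least 1.5-fold lower. Of thinned macrophages 4.86% and 13.8% had a UMI in knockout dorsal and knockout ventral trachea, and 4.52% and 14.0% in control dorsal and control ventral trachea. With gate minimums halved the control ratio was 0.883.

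**Figure D4:**
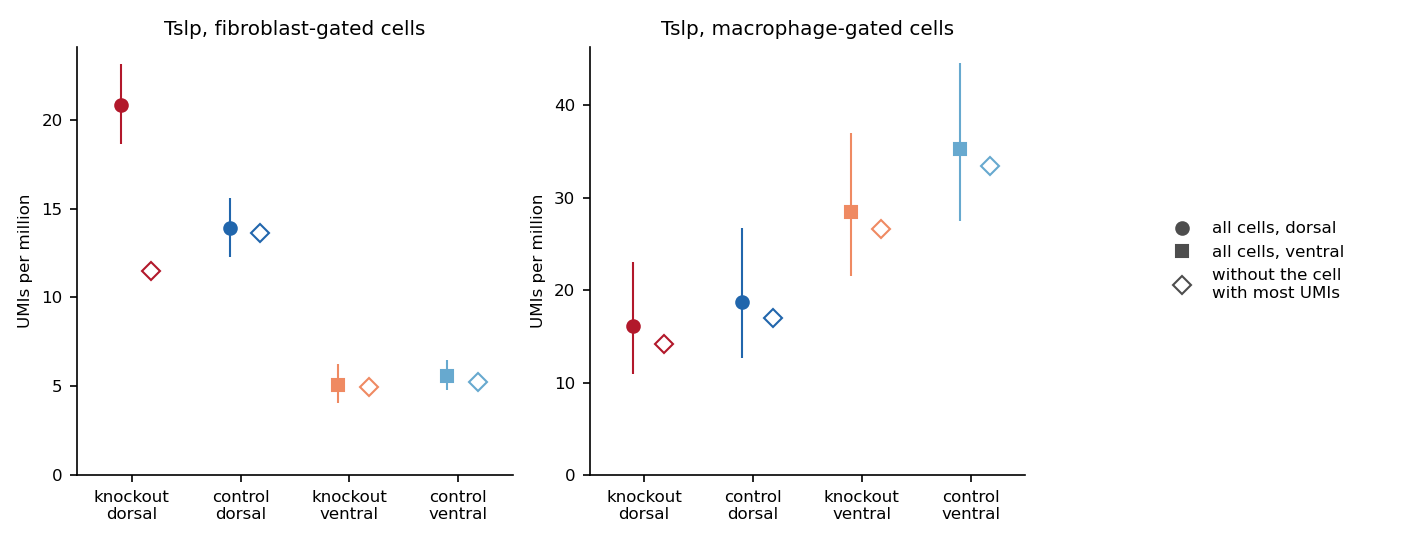
Tslp in CPM in fibroblast-gated and macrophage-gated cells of the 4 libraries; filled points are all cells with exact 95% Poisson intervals (red and orange knockout, blue control; circles dorsal, squares ventral) and open diamonds leave out the cell with the most Tslp UMIs. Dorsal libraries are above ventral ones in fibroblasts and below them in macrophages, and 1 cell accounts for much of the knockout dorsal fibroblast value.

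The Tslp of macrophages lay in cells with Mrc1, the mannose receptor of tissue-resident macrophages. All 30, 30, 56 and 69 UMIs of knockout dorsal, control dorsal, knockout ventral and control ventral trachea were in macrophages with Mrc1 UMIs, and the 28, 25, 59 and 64 macrophages without Mrc1 UMIs had none. Cells without Mrc1 UMIs held 441653 UMIs of all genes in knockout ventral and 499197 in control ventral trachea, and a count of 0 allows up to 3 UMIs among these; cells with Mrc1 UMIs held 1524282 and 1459258. Having a UMI of Mrc1 is more likely in a deeper cell, and the part of depth in this split was not tested. The few Il6 UMIs of macrophages, 52, 12, 13 and 12, were in cells with Mrc1 as well, and 44 of the 52 in knockout dorsal trachea lay in 1 cell. The split was added after the values were seen.

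Il1b, which inflammasomes act on as protein, was the most abundant member in macrophages. It stood at 1056 CPM (1009 to 1103) in knockout dorsal and 724 CPM (683 to 767) in control dorsal trachea, and at 1078 CPM (1033 to 1125) in knockout ventral and 510 CPM (479 to 543) in control ventral trachea. Both knockout libraries lay above both control libraries. The ratio of knockout to control was 1.46 dorsally (1.36 to 1.57) and 2.11 ventrally (1.96 to 2.28), with 7.67% and 9.42% of measured genes at least 1.5-fold higher in macrophages. A single cell held 505 of the 1961 knockout dorsal UMIs, and without the top cells the dorsal ratio was 1.23. Thinned macrophages with an Il1b UMI made up 29.2% and 25.1% in knockout dorsal and control dorsal trachea and 32.9% and 25.9% in knockout ventral and control ventral trachea, and these intervals overlap. Tyrobp-positive cells outside the gates stood the other way. They held 838 CPM in knockout dorsal and 1642 CPM in control dorsal trachea, from 31 and 52 cells. Ventrally they held 963 CPM in the knockout and 1665 CPM in the control library, from 45 and 99 cells.

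Within macrophages Il1b was higher in cells without Mrc1 UMIs in each library, at 1752, 2040, 1877 and 1418 CPM in knockout dorsal, control dorsal, knockout ventral and control ventral trachea, against 938, 555, 847 and 199 CPM in cells with Mrc1 UMIs. Cells with Mrc1 UMIs were higher in the knockout library in both regions, and cells without them only ventrally. The single cell with 505 UMIs was among the knockout dorsal cells with Mrc1. Macrophages had almost no neutrophil markers: 1 to 3 of 6 were found, at 20.6 to 24.9 CPM in sum. Dendritic markers, H2-Ab1 among them, summed to between 4129 and 5755 CPM.

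Il1rn, the antagonist, was highest in macrophages among the 6 gates. Macrophages held 268 CPM (245 to 292) in knockout dorsal and 189 CPM (168 to 212) in control dorsal trachea, and 139 CPM (123 to 157) in knockout ventral and 98.0 CPM (84.7 to 113) in control ventral trachea. It was higher dorsally in both genotypes, 1.92 in knockouts (1.65 to 2.23) and 1.93 in controls (1.60 to 2.32), and 5.58% and 8.69% of measured genes were at least 1.5-fold higher dorsally. The ratio of knockout to control was 1.41 dorsally (1.22 to 1.64) and 1.42 ventrally (1.18 to 1.72), under the 1.5-fold mark, and with gate minimums halved the dorsal one was 1.07. The 4 libraries thus stood in the order knockout dorsal, control dorsal, knockout ventral and control ventral with no overlap of neighbouring intervals.

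Il18 and Il1a were lower in macrophages. Il18 stood at 37.1 and 33.1 CPM in knockout dorsal and control dorsal trachea and at 32.6 and 20.4 CPM in knockout ventral and control ventral trachea; the ventral ratio of 1.59 (1.06 to 2.43) was 1.03 when each cell had equal weight. Il1a in macrophages was 35.5, 8.74, 28.0 and 21.4 CPM in knockout dorsal, control dorsal, knockout ventral and control ventral trachea, but 61 of the 66 knockout dorsal UMIs lay in 1 cell. Without the top cells the dorsal ratio of knockout to control was 0.437, where it had been 4.07. Il1a lay with Il1b in macrophages without Mrc1 in 3 libraries, at 38.5 CPM in control dorsal, 86.0 CPM in knockout ventral and 70.1 CPM in control ventral trachea, against 4.93, 11.2 and 4.80 CPM in cells with Mrc1.

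Counted over whole libraries, 3 of 7 members were at least 1.5-fold higher in knockout dorsal than in control dorsal trachea and none lower, beside 13.0% and 18.6% of all measured genes. Ventrally 2 were higher in the knockout and none lower, beside 4.18% and 8.72%. Dorsal over ventral, 2 were higher and 1 lower in knockouts, beside 5.46% and 33.4%, and none higher and 2 lower in controls, beside 5.47% and 35.1%.

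In the epithelial gates, except ventral basal cells, most measured members were at least 1.5-fold lower in the knockout libraries. Among the lower ones, Il33 and Tslp in secretory cells and Il6 in basal and secretory cells stood at a few CPM. Free RNA cannot be told apart from such levels, except for Il33 in control ventral secretory cells. Il1rn and Il18 in basal and secretory cells stood at a few CPM or less as well, and the part of free RNA in them was not tested. In dorsal basal cells 4 of 4 measured members (those with 20 or more UMIs in either library) were at least 1.5-fold lower, beside 19.2% of all measured genes. In dorsal hillock cells 3 of 4 were, beside 16.9%, and in dorsal secretory cells 5 of 6, beside 23.4%. In ventral secretory cells 4 of 5 were lower, beside 11.7%, and in ventral basal cells 2 of 4, beside 8.04%. Counts for Il1b in this set rest on very few cells: in control dorsal basal cells 21 of 22 UMIs lay in 1 cell, and in knockout ventral secretory cells 40 of 41. Higher members were none in dorsal basal, hillock and secretory cells, beside 9.57%, 8.61% and 6.61% of genes, and 1 each in ventral basal and secretory cells, beside 3.43% and 2.98%. In macrophages 2 of 6 were higher dorsally and 2 of 5 ventrally, beside 7.67% and 9.42%, and none was lower, beside 18.7% and 7.5%; of the UMIs of the dorsal ones in the knockout library, 1 cell held 61 of 66 for Il1a and 44 of 52 for Il6. In fibroblasts 1 of 4 was lower and none higher dorsally, beside 21.4% and 7.52%, and 1 of 5 was lower and 1 higher ventrally, beside 9.5% and 4.73%. The lower ventral one was Il1b, with 10 UMIs in the knockout and 118 in the control library. It thus reached 20 UMIs in the control library only, where 1 cell held 115 of the 118. Without the top cells its ratio was 4.91. Tslp in dorsal secretory cells counts as lower at a ratio of 0.627 from 13 and 39 UMIs, with an interval of 0.307 to 1.20, and it was 1.04 under 1 alternative. Without Il1b the epithelial counts of lower members were 3 of 3, 3 of 4, 4 of 5, 4 of 4 and 2 of 4. Some lower members reached 20 UMIs only in the control library. In dorsal hillock cells these were Il1a, with 4 UMIs in the knockout and 70 in the control library, and Il6, with 6 and 46. In dorsal secretory cells they were Tslp and Il1b, the latter with 0 and 156. In dorsal basal cells it was Il1b, with 0 and 22, and in ventral secretory cells Il1rn, with 10 and 29.

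**Figure D5:**
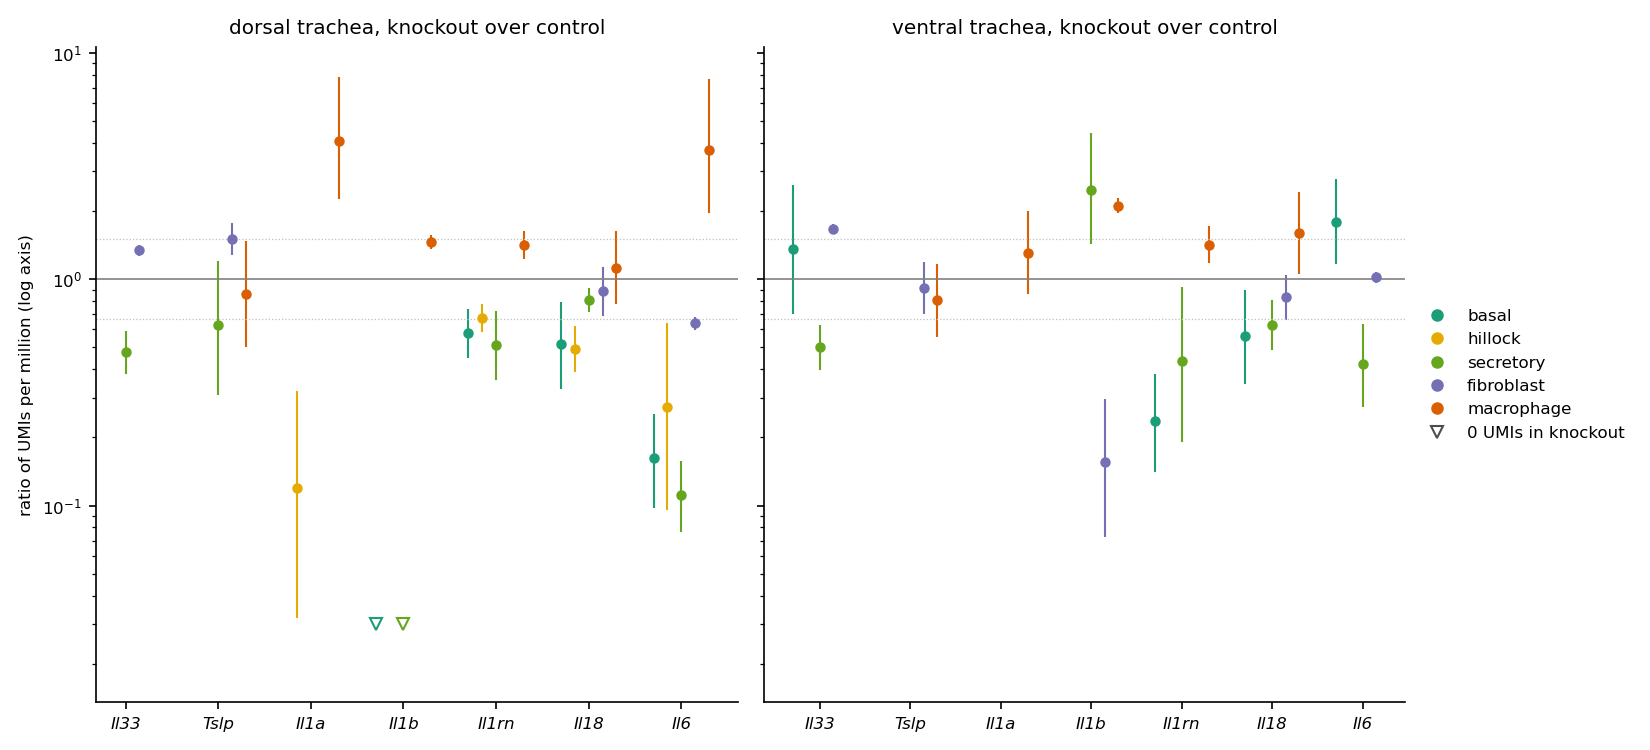
Ratio of knockout to control in CPM (log axis) for each measured gene by gated source, in dorsal trachea at left and ventral trachea at right, with conditional binomial 95% intervals; dotted lines mark 1.5-fold and open triangles mark 0 UMIs in the knockout library. Basal, hillock and secretory points for Il1rn, Il18 and Il6 lie below 1, except Il6 in ventral basal cells at 1.79, while macrophage points for Il1b and Il1rn lie above 1.

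Il1rn was a hillock gene within the epithelium. Hillock cells held 23.9 CPM in knockout dorsal and 35.4 CPM in control dorsal trachea, and 24 of the 43 hillock cells of control ventral trachea had a UMI. The ratio was 0.677 (0.585 to 0.78), just short of the fold. The share of hillock cells with a UMI did not follow: it was 47.9% in knockout dorsal and 48.1% in control dorsal trachea at median depths of 49080 and 30928 UMIs, and 11.2% (7.05 to 16.6) and 12.0% (9.54 to 14.8) after thinning. Hillock cells with no basal and no secretory gate passed held 42.0 CPM in knockout dorsal and 43.0 CPM in control dorsal trachea, those that also passed the basal gate 28.8 and 41.5 CPM, and those that also passed the secretory gate 8.53 and 19.8 CPM. Il18 was lower in knockout dorsal trachea in each of these 3 parts, at 16.4 against 24.0, 3.67 against 11.7 and 9.14 against 14.8 CPM; the 8 and 17 cells that passed both gates held 7.83 and 7.54 CPM.

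Basal cells held 3.81 CPM of Il1rn in knockout dorsal and 6.58 CPM in control dorsal trachea, a ratio of 0.578 (0.451 to 0.736), and 1.19 CPM in knockout ventral and 5.02 CPM in control ventral trachea, a ratio of 0.237 (0.14 to 0.38). Hillock markers in the same basal gate summed to 568 CPM in knockout dorsal and 910 CPM in control dorsal trachea, and to 356 CPM in knockout ventral and 399 CPM in control ventral trachea. In fibroblasts the same markers summed to 624, 967, 521 and 504 CPM in the same order of libraries. At this level the sum is therefore not particular to hillock cells, and its part in the Il1rn values was not tested. Secretory cells held 0.616 and 1.20 CPM dorsally, a ratio of 0.514 (0.36 to 0.722), and 0.353 and 0.809 CPM ventrally, a ratio of 0.437 (0.19 to 0.922), from 10 and 29 UMIs. All 5 epithelial ratios of Il1rn were below 1 under each alternative tried. The part of free RNA in its basal and secretory levels was not tested. In basal cells with at least 5 UMIs of eGFP, the reporter that marks cells in which the recombinases have acted, Il1rn was at 4.41 CPM in knockout dorsal and 7.11 CPM in control dorsal trachea, and at 0.779 CPM in knockout ventral and 5.40 CPM in control ventral trachea. Dividing basal cells, with UMIs of at least 3 of 8 division genes, had 17.8 CPM against 3.20 CPM in the other basal cells of knockout dorsal trachea, and 21.3 against 5.48 CPM in control dorsal trachea. In control ventral trachea it was 13.4 against 4.81 CPM, and the 7 dividing cells of knockout ventral trachea held 1 UMI.

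Il18, found across the epithelium, followed the same side. The ratio of knockout to control was 0.516 (0.327 to 0.794) in dorsal and 0.563 (0.343 to 0.898) in ventral basal cells, at 1.19 against 2.30 CPM and 1.48 against 2.64 CPM. In hillock cells it was 0.494 (0.388 to 0.623), at 8.45 CPM in knockout dorsal and 17.1 CPM in control dorsal trachea. Secretory cells had 5.19 against 6.42 CPM dorsally, a ratio of 0.808 (0.714 to 0.914), and 3.39 against 5.38 CPM ventrally, a ratio of 0.63 (0.488 to 0.809). Fibroblasts had ratios of 0.884 (0.689 to 1.13) dorsally and 0.831 (0.659 to 1.04) ventrally, whose intervals include 1. Both stayed below 1 under each alternative tried, and the ventral one was close to that of dorsal secretory cells. The part of free RNA in the basal and secretory levels of Il18 was not tested. Tuft cells, which initiate type 2 responses through IL-25, had Il18 UMIs in 9 of 16 cells in knockout ventral and 21 of 36 cells in control ventral trachea, at 34.5 and 46.4 CPM, beside 32.6 and 20.4 CPM in macrophages of the same libraries.

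Il6 gave the lowest dorsal ratios in basal and secretory cells among members with UMIs in both libraries. Dorsal basal cells had 0.859 CPM in the knockout and 5.31 CPM in the control library, from 21 and 201 UMIs in 12 and 86 cells, a ratio of 0.162 (0.098 to 0.254). Dorsal secretory cells had 0.49 against 4.40 CPM, from 35 and 592 UMIs in 29 and 265 cells, a ratio of 0.111 (0.0768 to 0.157). Dorsal hillock cells had 6 against 46 UMIs, a ratio of 0.274 (0.0955 to 0.642). Ventral secretory cells had 1.13 against 2.68 CPM, a ratio of 0.422 (0.274 to 0.636), but ventral basal cells 2.85 against 1.59 CPM, a ratio of 1.79 (1.17 to 2.77), where 3.43% of measured genes were at least 1.5-fold higher. Control dorsal trachea was the library that stood high, and the thinned share of secretory cells with an Il6 UMI was 0.312% in knockout dorsal and 1.43% in control dorsal trachea, and 0.862% in knockout ventral and 0.875% in control ventral trachea. Fibroblast markers summed to 390 and 443 CPM in knockout dorsal and control dorsal basal cells and to 73.5 and 146 CPM in secretory cells; their part in the Il6 values was not tested. These Il6 levels in basal and secretory cells are below the upper limits of the 95% intervals of Il6 in T cells, 5.60, 6.41, 3.90 and 5.70 CPM in knockout dorsal, control dorsal, knockout ventral and control ventral trachea.

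Between regions, dorsal over ventral, 1 of 3 measured members was higher and 1 lower in knockout basal cells, beside 8.51% and 21.8% of genes, and 2 of 5 were higher and 1 lower in control basal cells, beside 8.91% and 19.3%. In secretory cells 2 of 5 were higher and 3 lower in knockouts, beside 10.1% and 13.9%, and 2 of 6 higher and 1 lower in controls, beside 12.0% and 12.2%. Some of these members reached 20 UMIs in 1 library only. In control basal cells they were Il1b, with 22 UMIs dorsally and 0 ventrally, and Il33, with 7 and 23. In knockout secretory cells they were Il1b, with 0 and 41, and Il1rn, with 44 and 10 (interval of the ratio 0.864 to 3.89). A single cell held 21 of the 22 Il1b UMIs, and another held 40 of the 41.

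Il33 in the epithelium was low and mostly in secretory cells. It stood at 1.44 CPM in knockout dorsal and 3.03 CPM in control dorsal secretory cells, a ratio of 0.476 (0.38 to 0.593), and at 3.74 CPM in knockout ventral and 7.47 CPM in control ventral secretory cells, a ratio of 0.501 (0.396 to 0.63). It was thus lower in knockout secretory cells and higher in knockout fibroblasts, in both regions. Of the secretory levels, free RNA cannot be told apart from any but that of control ventral trachea. With equal weight per cell the dorsal ratio was 0.979, and the thinned shares of secretory cells with a UMI, 0.546% and 0.983% dorsally and 1.51% and 1.88% ventrally, had overlapping intervals. Both dorsal libraries were below both ventral libraries, at ratios of 0.385 in knockouts and 0.405 in controls, though the ratio in knockouts was 1.63 with equal weight per cell. Tslp reached at most 39 UMIs in any epithelial gate and library, and at most 5 outside secretory cells, so its basal and secretory levels of 0.0529 to 0.29 CPM are near the limit of what these libraries show. Il1a was found in epithelium in hillock cells, with 4 UMIs in 1 of 188 cells in knockout dorsal and 70 UMIs in 22 of 628 cells in control dorsal trachea; 31 of the 70 lay in 1 cell, and 63 of them in cells that passed no basal or secretory gate.

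Il6, Il1rn and Il18 had ratios below 1 in each dorsal epithelial gate. Upstream sequences are shown for Il6 and Il1rn, which hold matches to the NF-kB letters, and for Il1b, which holds none; Il18 has none either. The sequences are the 250 bases before the annotated starts, 5′ to 3′, from RefSeq on build GRCm38.p6, which is not the build of the counts. Il6 is at chr5:30012864-30013113 (plus strand), the first Il1rn start at chr2:24336610-24336859 (plus strand), the third Il1rn start at chr2:24345121-24345370 (plus strand), and Il1b at chr2:129371140-129371389 (minus strand). Capitals mark matches, on either strand, to 3 motifs. The NF-kB letters were 3 G, then 5 bases of any kind, then 2 C. The letters of AP-1, the dimer of Fos and Jun, were TGANTCA. The letters of the TATA box, which places the start of transcription, were TATAAA.
Il6: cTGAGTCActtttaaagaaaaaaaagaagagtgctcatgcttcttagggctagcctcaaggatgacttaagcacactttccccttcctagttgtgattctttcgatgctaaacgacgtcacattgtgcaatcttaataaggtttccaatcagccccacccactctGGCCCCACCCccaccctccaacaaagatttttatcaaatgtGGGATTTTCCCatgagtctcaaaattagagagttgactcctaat
Il1rn start 1: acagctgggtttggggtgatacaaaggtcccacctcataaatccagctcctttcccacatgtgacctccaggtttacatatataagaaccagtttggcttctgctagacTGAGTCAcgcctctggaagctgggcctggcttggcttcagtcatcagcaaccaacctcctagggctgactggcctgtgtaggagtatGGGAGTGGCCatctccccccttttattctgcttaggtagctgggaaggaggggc
Il1rn start 3: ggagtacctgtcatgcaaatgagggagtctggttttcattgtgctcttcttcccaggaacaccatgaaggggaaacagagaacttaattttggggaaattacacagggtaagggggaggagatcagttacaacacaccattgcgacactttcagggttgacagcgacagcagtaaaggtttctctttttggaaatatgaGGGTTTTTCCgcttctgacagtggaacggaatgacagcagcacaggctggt
Il1b: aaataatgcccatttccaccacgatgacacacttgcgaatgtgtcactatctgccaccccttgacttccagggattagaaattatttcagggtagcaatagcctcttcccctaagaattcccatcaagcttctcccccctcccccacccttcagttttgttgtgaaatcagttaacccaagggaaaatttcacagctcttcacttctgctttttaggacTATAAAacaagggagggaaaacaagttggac
The Il6 sequence has NF-kB matches that begin 85, 44 and 43 bases before the start, the last 2 overlapping on opposite strands, and an AP-1 match that begins 249 bases before it. The first Il1rn start has an NF-kB match from base 54 and an AP-1 match from base 141, and the third start has an NF-kB match from base 51. The second Il1rn start, which is not shown, has no match to any of the 3 motifs. Il1b has the TATA box alone, from base 31. Of 32851 such windows in the mouse table, 45.8% hold the NF-kB letters, 6.75% the AP-1 letters and 12.4% the TATA box, so an NF-kB match is common, and a match does not show that a factor binds there. The counts were made per gene, so UMIs from the 3 Il1rn starts cannot be told apart. Sequences were read for 6 of the 7 members.

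Genes of the NF-kB pathway and its feedback were also lower in the knockout dorsal library. Of 13 such genes, all measured, 9 were at least 1.5-fold lower in basal cells, 9 in hillock cells, 8 in secretory cells, 7 in fibroblasts and 3 in macrophages, beside 19.2%, 16.9%, 23.4%, 21.4% and 18.7% of all measured genes, and none was 1.5-fold higher. The median log2 ratio was -0.82 in basal, -0.67 in hillock and -0.74 in secretory cells, beside -0.12, -0.12 and -0.22 over all genes in the same cells. Rela, the p65 subunit, stood at 21.6 CPM in knockout dorsal and 73.1 CPM in control dorsal basal cells, and at 20.0 and 59.1 CPM in secretory cells. Tnfaip3, the A20 inhibitor and itself a target, stood at 7.9 and 24.8 CPM in basal and 4.5 and 37.4 CPM in secretory cells. Nfkbia, which encodes the main inhibitor, was at 628 and 695 CPM in basal cells, a ratio of 0.90.

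In ventral trachea none of the 13 genes was past 1.5-fold in basal cells or macrophages, 2 were lower in secretory cells, beside 11.7% of all measured genes, and 2 higher in fibroblasts, beside 4.73%. Between the knockout libraries, dorsal over ventral, 8 of 13 were lower in basal cells, beside 21.8% of all measured genes, 5 in secretory cells, beside 13.9%, and 7 in fibroblasts, beside 28.9%; in macrophages none was lower and 1 was higher, beside 22.9% and 5.58%. Among cells the Cre was not aimed at, fibroblasts had Nfkb1 at 125 CPM in knockout dorsal and 747 CPM in control dorsal trachea, while in macrophages 3 of 13 genes were lower in knockout dorsal trachea, beside 18.7% of all measured genes, with a median log2 ratio of -0.10 on this list and -0.13 over all genes. How far the library, the region and the genotype each carry it cannot be told apart. Genes of the handling response, Fos, Jun and heat shock genes, summed to 12409 and 14478 CPM in knockout dorsal and control dorsal basal cells and to 21804 and 21191 CPM in knockout ventral and control ventral basal cells. Their part in the values of the alarm genes was not tested.

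Receptors for these cytokines were spread over other cells. Il1r1, the signalling receptor of both IL-1 cytokines, was at 93.2, 101, 144 and 155 CPM in fibroblasts and at 50.1, 49.5, 54.4 and 46.2 CPM in basal cells of knockout dorsal, control dorsal, knockout ventral and control ventral trachea. Il18r1, the IL-18 receptor, was at 52.7, 53.3, 33.4 and 26.3 CPM in basal cells and at 314, 396, 448 and 303 CPM in T cells. Il1rl1, the IL-33 receptor, reached no more than 10.8 CPM in any of the 6 gates, and at most 13.7 CPM in T cells, in the knockout ventral library. Crlf2 and Il7r, the chains of the TSLP receptor, were together in macrophages, Crlf2 at 118, 150, 114 and 123 CPM and Il7r at 150, 158, 99.2 and 108 CPM. Of 12 receptor and decoy genes, 3 of 9 measured were at least 1.5-fold lower in knockout dorsal basal cells, beside 19.2% of all measured genes, and 3 of 10 lower and 1 higher in knockout ventral basal cells, beside 8.04% and 3.43%. Il1r2, a decoy for IL-1, was among the lower ones dorsally in basal cells, at 3.2 CPM against 6.0 CPM.

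Within each gate, most measured inflammasome genes differed by less than 1.5-fold between knockout and control. Over whole libraries 4 of 10 measured were higher and 1 lower in the knockout dorsally, beside 13.0% and 18.6% of all measured genes. Ventrally 1 of 11 was higher and 1 lower, beside 4.18% and 8.72%. In macrophages 7 were measured dorsally and none was past 1.5-fold, beside 7.67% of all measured genes higher and 18.7% lower. Of 8 measured ventrally in macrophages 2 were higher, beside 9.42% of all measured genes, Pycard at 121 CPM in knockout ventral against 55.7 CPM in control ventral trachea and Gsdmd at 48.8 against 26.0 CPM. Nlrp3, the sensor, was a macrophage gene at 154, 129, 127 and 142 CPM and no more than 0.92 CPM in epithelial gates. Casp1, which cuts IL-1beta and IL-18, was found in macrophages at 96.9, 68.6, 62.6 and 52.6 CPM and in basal cells at 21.7, 15.8, 19.4 and 19.8 CPM. Casp4 was at least 1.5-fold lower in knockout dorsal basal, hillock and secretory cells, at 110, 62.8 and 49.5 CPM against 182, 106 and 96.6 CPM in the control dorsal library. Of the related cytokines, Il25 was a tuft cell gene and Il36g was found in the few neutrophils, and both were under 1 CPM in basal, hillock and secretory cells.

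Likeness was measured as Pearson's r of log2(CPM + 1) over 35 points of a source and a library, among 12170 genes; the points share libraries and cell types, so it is a description. The genes most like Il33 were Col13a1, Mfap2 and Meox2, each with r of 0.94. For Il6, Tnxb and Arsa led, each with r of 0.89, and for Tslp they were Lpl, Ccl7 and Hgf, with r of 0.94. Those of Il1b were Clec4b1, Gm40645 and Csf2rb at 0.99, and those of Il1a Gm48065, Gm46224 and Tlr9 at 0.96 to 0.97. Il1rn was most like Tnip3, Scamp2 and Il1a, at 0.91 to 0.93. Il18 had no close match; Snx10, Arf2 and Ube2f led with 0.81 to 0.88. Among the members, Il1a and Il1b were the closest pair at 0.94 and Il33 and Il6 stood at 0.82.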

How the data were processed

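Tracheal cells were dissociated with papain and profiled with a 10x Genomics 5′ kit. Per the submitters' processing notes, Cell Ranger 10.0.0 and mouse build GRCm39 were used; the deposited values are whole UMI counts per gene and cell, not normalized, and all columns were mapped to a library. Cells with under 500 genes or over 15% mitochondrial UMIs, and doublets called by Scrublet in scanpy 1.11.5, were left out. In the knockout ventral library, where the automatic threshold failed, a fixed doublet rate in proportion to cell number was used. Total UMIs per library were 161377683, 286711618, 144851737 and 204278955 in the knockout dorsal, control dorsal, knockout ventral and control ventral libraries.

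Gates required, in UMIs per cell, Trp63 of 1 and Krt5 of 5 (basal), Krt13 and Krt4 of 5 (hillock), Scgb1a1 of 5 and a share of UMIs above that of most fibroblasts and macrophages (secretory), Trpm5 of 2 (tuft), Col1a2 of 5 (fibroblast) or C1qa of 5 (macrophage). Cells that passed an epithelial and another gate, or the basal and secretory gates, were set aside. UMIs were summed per gate and library and divided by their total. Poisson, conditional binomial and Clopper-Pearson intervals (scipy 1.17.1) were tested on simulated data. A gene was measured with 20 UMIs in 1 of 2 libraries, and comparisons needed 50 cells in both. For shares of cells, each was thinned to 4000 UMIs. Members were named in full, further genes came from lists of receptors, inflammasome genes, related cytokines and NF-kB genes, and for likeness the 3 genes with the highest correlation. One gene named by the likeness rule is not reported here. The members and lists were chosen with earlier results of these data known. The alternatives were other filters, gates, scalings and cell weights. Promoter sequences came from a RefSeq table on GRCm38.p6, and no coordinates were moved between builds.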

Additional observations from a re-analysis of the deposited data

Results flagged for a closer look

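Some ratios lay on opposite sides of 1 in the 2 regions or the 2 genotypes, with intervals that exclude 1 or a count of 0; none of these differences was tested. Il6 in basal cells had a knockout over control ratio of 0.162 dorsally and 1.79 ventrally, and a dorsal over ventral ratio of 0.301 in knockouts and 3.34 in controls. The dorsal over ventral ratio of Il6 was 0.433 in knockout and 1.64 in control secretory cells, and 0.827 in knockout and 1.32 in control fibroblasts. Over whole libraries the Il6 knockout over control ratio was 0.920 dorsally and 1.16 ventrally. Il33 in fibroblasts had a dorsal over ventral ratio of 0.876 in knockouts and 1.09 in controls. Tslp over whole libraries had a dorsal over ventral ratio of 1.53 in knockouts and 0.856 in controls.

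Il1b in secretory cells had a knockout over control ratio of 0 dorsally and 2.47 ventrally, and a dorsal over ventral ratio of 0 in knockouts and 1.98 in controls; 40 of the 41 knockout ventral UMIs lay in 1 cell. Over whole libraries the Il1b knockout over control ratio was 2.40 dorsally and 0.898 ventrally.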

How the results depend on the processing

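Of 260 ratios in the leading source of a member under an alternative, 215 stayed within the counting interval, 41 moved out of it and 4 turned. In other sources 571 of 669 stayed, 80 moved and 18 turned, and the causes were not tested. Only ratios whose main interval excluded 1 could count as turned. Others could cross 1 and still count as stayed or moved. KO/C is knockout over control, D dorsal, V ventral and D/V dorsal over ventral. With doublets kept, Il1b in secretory cells was 2.31 (KO/C D) and 1.94 (D/V knockout), and with all barcodes 2.22 and 1.88. With gate minimums halved, Il1b in basal cells was 7.31 (KO/C D); in fibroblasts D/V was 0.960 in knockouts and 1.20 in controls for Il33, and 0.761 and 1.16 for Il6; in macrophages Il1b was 1.21 (KO/C D) and 1.72 (KO/C V), Il1rn 1.07 (KO/C D) and Tslp 0.883 (D/V control). With minimums doubled, Il1b in secretory cells was 0.104 (KO/C V); in fibroblasts Il6 was 0.685 (KO/C D), and D/V was 0.756 in knockouts and 0.933 in controls for Il33, and 0.965 and 1.42 for Il6. With cells counted in every gate passed, Il1b was 1.43 in fibroblasts (D/V control) and 1.35 in macrophages (KO/C D). With size factors, which shifted log2 ratios by up to 0.25 (D/V knockout, whole library), Il33 in fibroblasts was 1.44 (KO/C D) and 1.00 (D/V knockout), Il6 0.686 and 0.945, and Il1b in macrophages 1.61 and 1.05. With equal weight per cell, Il1b in secretory cells was 0.887 (KO/C V) and Il33 1.63 (D/V knockout); in fibroblasts Il6 was 0.578 (KO/C D) and 1.41 (D/V control), and Il33 D/V was 0.793 in knockouts and 1.03 in controls. In macrophages it gave KO/C D of 1.88 for Il1a, 1.26 for Il1b and 1.79 for Il1rn, KO/C V of 1.89 for Il1rn and 1.03 for Il18, D/V in knockouts of 0.462 for Il1a and 0.709 for Il1b, and D/V in controls of 1.17 for Il1b and 1.03 for Il18; over whole libraries it gave 1.04 for Il1b and 1.03 for Il1rn (KO/C V) and 0.953 for Il18 (D/V knockout). The next 2 settings were chosen after seeing the data. Without the top cell of each library, Il1b in secretory cells was 0.115 (KO/C V), Tslp in fibroblasts 0.843 (KO/C D), Il1b in fibroblasts 4.91 (KO/C V) and 1.05 (D/V control), Il1a in macrophages 0.437 (KO/C D) and 0.116 (D/V knockout), Il1b there 1.23 and 0.821, Il6 there 0.774 (KO/C D), and Il1a over whole libraries 0.690 (KO/C D). With Dcn for the fibroblast gate, Il33 was 1.55 (KO/C D) and 1.76 (KO/C V), Il6 0.722 and 1.17, and D/V was 0.829 in knockouts and 0.943 in controls for Il33, and 0.757 and 1.23 for Il6. The count of members past the fold in their leading source was 1 (KO/C D) without the top cell, 2 (D/V control) with minimums halved, 1, 1, 0 and 1 at 2-fold (KO/C D, KO/C V, D/V knockout, D/V control), and 1, 1 and 1 at 100 UMIs (KO/C D, D/V knockout, D/V control). At the main setting these members were, for KO/C D, Il1a in macrophages and Il6 in fibroblasts. For KO/C V they were Il33 in fibroblasts and Il1b and Il18 in macrophages. In macrophages they were Tslp and Il1rn for D/V knockout, and Tslp, Il1a, Il1rn and Il18 for D/V control. Shares of all genes under these settings are not given here, so the counts have no background beside them.

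No paired analysis was possible because each group had 1 library and no result came from a test. Depth limits the values that rest on few UMIs, among them Il1a and epithelial Tslp.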

Other observations

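Cells outside the 6 gates held some of these genes. Dendritic cells, which present antigen, had more Il1b than macrophages in each library, at 1767, 1388, 1628 and 3013 CPM in the 49, 46, 35 and 63 cells of knockout dorsal, control dorsal, knockout ventral and control ventral trachea. The 6 knockout dorsal, 4 knockout ventral and 9 control ventral neutrophils held 5709, 2261 and 4031 CPM. Endothelial cells had Il33 at 74.8 CPM in knockout ventral and 21.3 CPM in control ventral trachea, from 207 UMIs in 166 cells and 65 UMIs in 188 cells, and Il6 at 40.8 and 53.6 CPM. Chondrocytes, the cells of the cartilage rings, had Il18 at 30.8 CPM in knockout ventral and 24.1 CPM in control ventral trachea, from 107 and 240 cells.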
